A study of Homo sapiens with 36 samples.

Results

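10 secreted inflammatory proteins were followed at the RNA level in pancreatic cancer cells: the chemokines CXCL8, CXCL1, CXCL2, CXCL3, CXCL5 and CCL20, the interleukins IL1A, IL1B and IL6, and LIF, a cytokine of the interleukin-6 family. They were taken by symbol from the gene counts and make up 10 of 58243 genes. The study sequenced RNA from 36 libraries of 3 established lines of human pancreatic ductal adenocarcinoma, PANC-1, MIA PaCa-2 and BxPC-3. Each line was given GW3965, a synthetic agonist of the liver X receptors (LXR, nuclear receptors for oxysterols), or 1E5 or 3A4, compounds known here by code name that the labels call LXR inverse agonists, or DMSO, the vehicle. Ligands were given for 48 h at 10 µM. BxPC-3 was kept in RPMI 1640 and the other lines in high-glucose DMEM with HEPES, with 10% fetal bovine serum in either medium, 5% CO2 and 37 °C. Differences between BxPC-3 and the rest therefore cannot be told apart from those of the medium. There were 3 libraries in each of the 12 groups of line and ligand. Their titles name them as biological replicates without saying that the cultures were separate, so p-values measure a spread that may be technical.

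The CXC chemokines of this list carry an ELR motif and act chiefly on CXCR2, and CXCL8 on CXCR1 too, the receptors that draw neutrophils to inflamed tissue. CCL20 acts on CCR6 of lymphocytes and dendritic cells, IL1A and IL1B share the receptor IL1R1, and IL6 and LIF signal through the shared subunit IL6ST to STAT3. In pancreatic cancer, IL-1 from tumour cells is known to drive an inflammatory state of nearby fibroblasts, and LIF is known as a signal between stroma and tumour. The genes of the list are textbook targets of the transcription factors NF-kB, AP-1 and C/EBP.

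All of the genes are protein-coding, and locations are from GENCODE release 29 on GRCh38. The CXC chemokines lie together on chromosome 4: CXCL8 (ENSG00000169429) at chr4:73740506-73743716 and CXCL1 (ENSG00000163739) at chr4:73869393-73871242 on the plus strand, with CXCL5 (ENSG00000163735) at chr4:73995642-73998779, CXCL3 (ENSG00000163734) at chr4:74036589-74038807 and CXCL2 (ENSG00000081041) at chr4:74097035-74099293 on the minus strand. CCL20 (ENSG00000115009) is at chr2:227805739-227817564 on the plus strand. IL1A (ENSG00000115008) and IL1B (ENSG00000125538) are neighbours on the minus strand, at chr2:112773915-112784590 and chr2:112829751-112836903. IL6 (ENSG00000136244) is at chr7:22725884-22732002 on the plus strand and LIF (ENSG00000128342) at chr22:30240447-30246851 on the minus strand.

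Promoters were read because several of the members moved together. RefSeq (GRCh38.p14) gave promoter windows of 9 of the 10 genes, and LIF had no entry. The NF-kB core GGANNTTCC, read on both strands, was present in 4.56% of the 35116 promoter windows and in those of 6 members. The 6 windows are shown for their shared element, as 100 bases ending 41 bases before the RefSeq start site. They are on the gene's strand and 5′ to 3′, with the core in capitals. The RefSeq start can differ from that of the GENCODE locations above. The IL6 stretch lies inside the gene as located there, and those of CXCL8, CXCL2, CXCL3 and CXCL5 overlap theirs. The CXCL8 stretch is chr4:73740429-73740528 (plus strand), CXCL1 chr4:73869253-73869352 (plus), CXCL2 chr4:74099236-74099335 (minus), CXCL3 chr4:74038730-74038829 (minus), CXCL5 chr4:73998718-73998817 (minus) and IL6 chr7:22727060-22727159 (plus).
CXCL8: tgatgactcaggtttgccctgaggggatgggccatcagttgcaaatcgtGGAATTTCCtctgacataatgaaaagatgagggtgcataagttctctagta
CXCL1: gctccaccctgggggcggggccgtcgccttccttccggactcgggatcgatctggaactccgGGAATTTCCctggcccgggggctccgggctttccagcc
CXCL2: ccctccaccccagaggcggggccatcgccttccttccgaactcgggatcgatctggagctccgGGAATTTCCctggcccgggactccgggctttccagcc
CXCL3: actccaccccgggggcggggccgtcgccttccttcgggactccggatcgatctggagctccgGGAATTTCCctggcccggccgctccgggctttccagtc
CXCL5: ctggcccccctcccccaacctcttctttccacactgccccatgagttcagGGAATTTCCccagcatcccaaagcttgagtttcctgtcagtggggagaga
IL6: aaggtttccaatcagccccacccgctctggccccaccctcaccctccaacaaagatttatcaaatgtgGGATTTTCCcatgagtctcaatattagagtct

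The 5 CXC chemokines carried the same 9 letters, and IL6 differed from them within the core. The core began 91 bases before the start of CXCL8, 90 before CXCL5, 78 before CXCL1 and CXCL3, 77 before CXCL2 and 72 before IL6. The AP-1 motif TGANTCA was in 7.71% of all windows and in those of CXCL8 and IL1A. The C/EBP motif TTGCNNAA was in 10.5% of windows and in those of CXCL2, IL1B and IL6. The part of these motifs in the ligand responses given below was not tested. The promoter stretches of CXCL1 and CXCL2 read nearly alike around the core. Their mature transcripts are also close: 12.5% of the 50-base words of CXCL2, 6.01% of those of CXCL3 and 4.81% of those of CXCL1 occur in another gene, mostly in one another, so reads can be split between these 3 genes. For CXCL5 this share was 1.12%, and for the other 6 genes it was 0.

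Libraries held 19605935 to 25888304 counts in BxPC-3 and 14960970 to 26026684 in PANC-1. MIA PaCa-2 was less even, with 2701393 to 13631719 counts with GW3965, 23675670 to 25503827 with 1E5, 8889927 to 24588097 with 3A4 and 3609582 to 10996848 with DMSO. Mitochondrially encoded genes took 2.04% ± 0.720 of counts with 1E5 in MIA PaCa-2, against 7.54% ± 0.0300 with DMSO, and 4.40% ± 2.00 with 1E5 in PANC-1, against 6.82% ± 0.708 with DMSO (SD, n = 3 each). Replicate 2 of PANC-1 with 1E5 stood apart from the other libraries of its group, and values of members that it moves are also given without it. As to cell identity, EPCAM was at 0 in 11 of the 12 MIA PaCa-2 libraries and CDH1 reached at most 0.767 CPM there, so the labelled epithelial tumour type rests in that line on keratins 8, 18 and 19. PTPRC, which marks leukocytes, was at 0 in 35 of the 36 libraries. Other leukocyte and endothelial markers were found in places. CD3E was at 0 in only 1 of the 12 BxPC-3 libraries and PECAM1 in 0, while both were at 0 in all MIA PaCa-2 and PANC-1 libraries. With DMSO, the endothelial marker CDH5 averaged 13.0 ± 5.56 CPM in BxPC-3 and 23.7 ± 2.08 CPM in MIA PaCa-2. The leukocyte marker CD14 averaged 17.3 ± 2.72 CPM in MIA PaCa-2 with DMSO.

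With DMSO, the lines differed in which of these genes they expressed. Levels are given as CPM, counts per 1000000 of a library total scaled by TMM, and across lines the scaling covered all 36 libraries. Of the 10 members 9 were higher and 1 lower in BxPC-3 than in PANC-1, where 27.1% of all genes tested were called higher and 25.5% lower. MIA PaCa-2 was higher than PANC-1 for 8 members and lower for 0, against 21.7% and 29.5% of all genes (edgeR quasi-likelihood test, Benjamini-Hochberg adjusted over 22132 genes, threshold 0.05). Between BxPC-3 and MIA PaCa-2 the list split, with 4 members higher and 4 lower in BxPC-3, against 32.7% and 24.6% of all genes. Both counts of members higher in BxPC-3 include IL6. It was at 0 in nearly all libraries of the other lines and so passed the filter on low counts through BxPC-3.

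CXCL8, CXCL1 and CXCL5 had 13.8 CPM or more on average in BxPC-3 and MIA PaCa-2 and at most 4.88 CPM in PANC-1. CXCL8, which encodes interleukin-8, averaged 43.0 ± 13.0 CPM in BxPC-3 and 42.2 ± 9.01 in MIA PaCa-2, with 0.583 ± 0.0813 in PANC-1 (SD, n = 3 each). The first pair did not differ beyond their spread (log2 fold change of BxPC-3 over MIA PaCa-2 0.03, 95% interval -0.61 to 0.67, edgeR adjusted p = 0.976), and they stood 72.9-fold and 71.5-fold above PANC-1 (log2 6.19 ± 0.427 and 6.16 ± 0.431, SE, adjusted p = 5.61e-13 and 9.93e-13). CXCL1 averaged 45.0 ± 9.63 CPM in BxPC-3 and 85.5 ± 20.6 in MIA PaCa-2, with 4.88 ± 0.476 in PANC-1, and each step of that order passed the test (edgeR adjusted p = 0.00268 between BxPC-3 and MIA PaCa-2). The chemokine CXCL5 followed the same order, with 13.8 ± 5.06 CPM in BxPC-3 and 34.2 ± 4.45 in MIA PaCa-2, with 0.328 ± 0.0660 in PANC-1. CXCL2 and CXCL3 were less abundant, with 3.77 ± 1.21 and 3.68 ± 0.800 CPM in BxPC-3, 9.10 ± 2.44 and 4.13 ± 1.57 CPM in MIA PaCa-2, and 0.229 ± 0.214 and 0.133 ± 0.0477 CPM in PANC-1.

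IL-1 marked BxPC-3. IL1A, the membrane-associated and nuclear form of the cytokine, averaged 184 ± 33.6 CPM there, 0.834 ± 1.14 in MIA PaCa-2, with 0 in PANC-1, where a count of 0 over the group allows up to 0.0408 CPM. Its fold in BxPC-3 over PANC-1 was at least 4500, the bound being set by 3 counts over the group at 0. IL1B, the secreted form that needs cleavage, averaged 93.0 ± 40.0 CPM in BxPC-3 and 7.85 ± 1.28 in MIA PaCa-2, with 0 in PANC-1. IL1B had no count in any of the 12 PANC-1 libraries under any ligand. CCL20 averaged 4.56 ± 1.44 CPM in BxPC-3, at least 32.2-fold above MIA PaCa-2, where all DMSO libraries were at 0, and IL6 was found at 0.761 ± 0.152 CPM in BxPC-3 only among the DMSO groups. The IL6 call against MIA PaCa-2 ended without DMSO replicate 1 or 2 of MIA PaCa-2 (adjusted p = 0.0612 and 0.0857). LIF ran the other way, lower in BxPC-3 than in both other lines, with 37.7 ± 4.56 CPM in BxPC-3 and 81.2 ± 13.9 in MIA PaCa-2, with 60.7 ± 6.77 in PANC-1. Its difference between MIA PaCa-2 and PANC-1 was small (log2 0.42 ± 0.162, edgeR adjusted p = 0.0292), and the call ended without DMSO replicate 1 or 2 of MIA PaCa-2 (adjusted p = 0.262 and 0.242) or DMSO replicate 1 or 3 of PANC-1 (0.151 and 0.0597).

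Set against one another per length, as CPM per kb of exon, the leading member with DMSO was IL1A in BxPC-3 (86.6 ± 15.8), CXCL1 in MIA PaCa-2 (66.0 ± 15.9) and LIF in PANC-1 (15.3 ± 1.71). In BxPC-3 CXCL1 (34.7 ± 7.43) and IL1B (30.0 ± 12.9 CPM per kb) came next, with ranges of their spreads that overlap. In PANC-1 CXCL1 was second at 3.77 ± 0.368 CPM per kb, and no other member exceeded 0.256 CPM per kb. LIF overlaps antisense genes, LIF-AS1 among them, and IL6 overlaps STEAP1B and an antisense gene. The strand setting of the counting is not given in the sources used here, so their levels are uncertain.

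**Figure D1:**
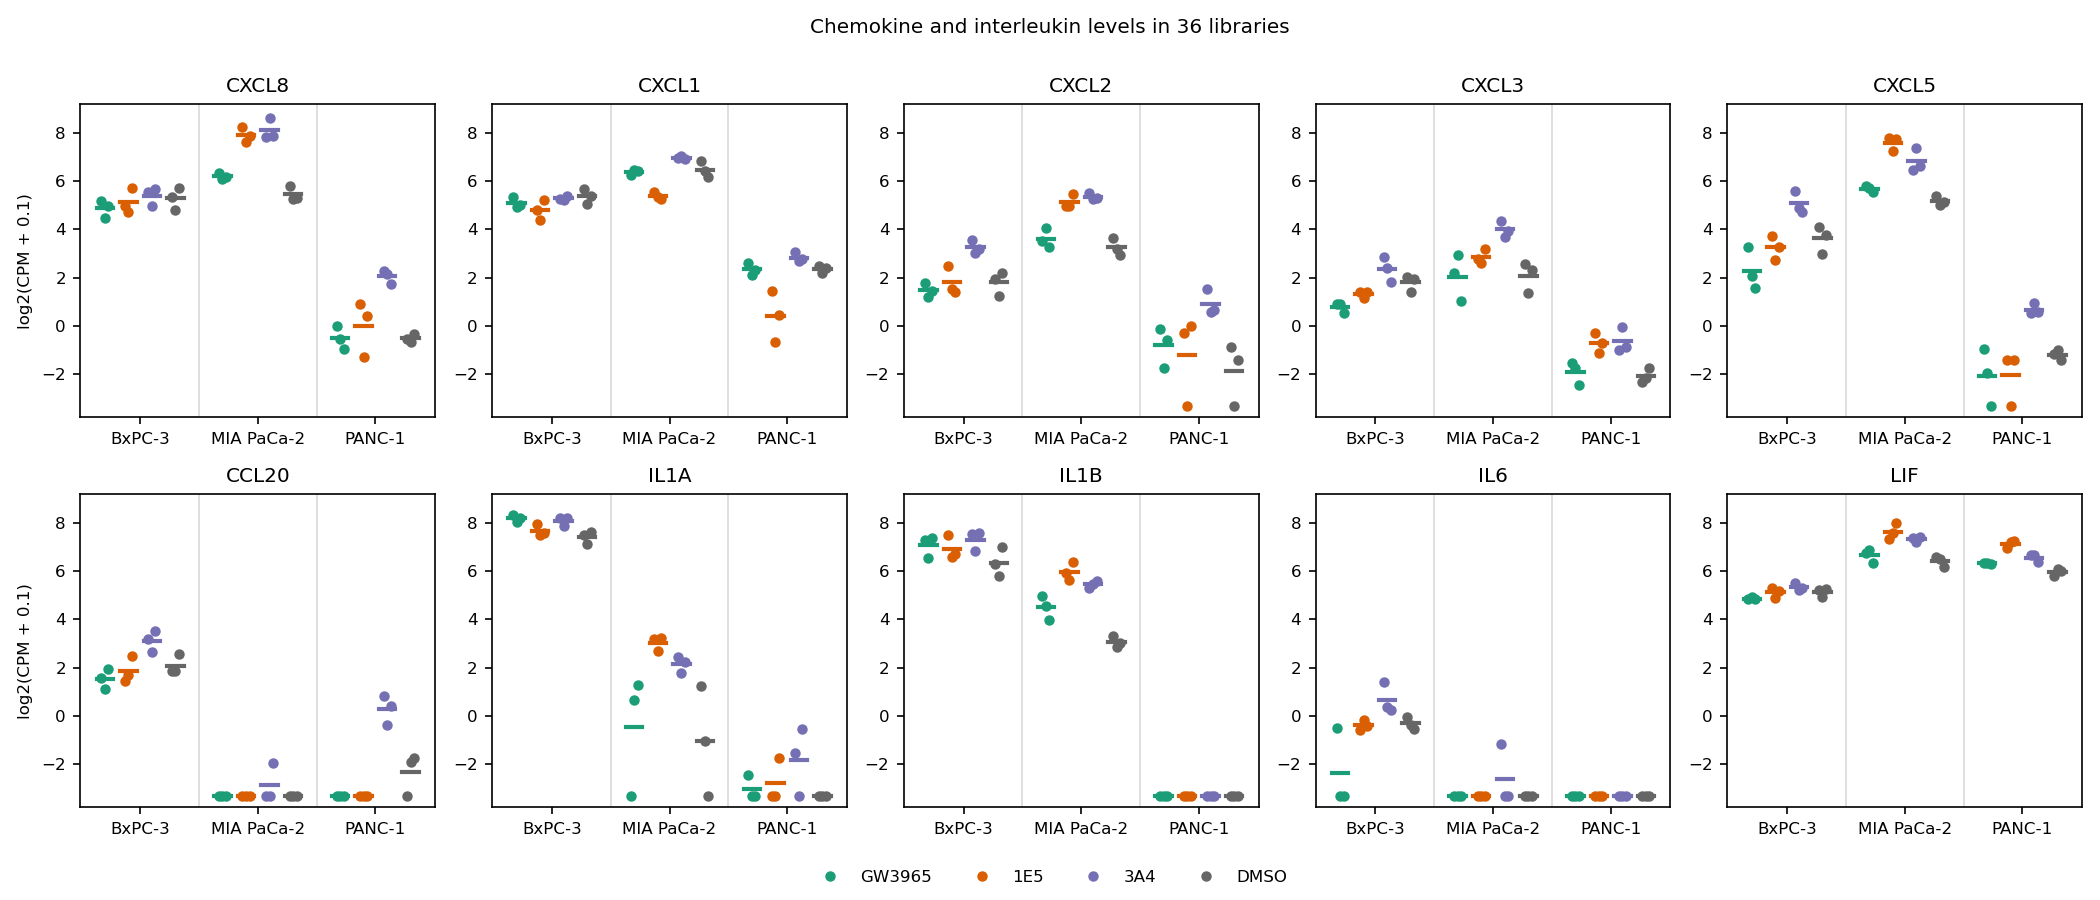
Levels of the 10 members in each of the 36 libraries as log2(CPM + 0.1), 1 panel per gene, with lines and ligands along the horizontal axis and 1 point per library. CXCL8 in MIA PaCa-2 sits at 195 to 388 CPM with 1E5 and 3A4, above the 38.7 to 55.5 CPM of DMSO, while IL1B is at 0 in all PANC-1 libraries.

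In MIA PaCa-2 most of the list rose with 1E5. Of the 8 members that passed the filter on low counts 6 rose and 1 fell, where 23.6% of the 16254 genes tested rose and 23.4% fell. Their median log2 fold change was 2.15, against 0.05 over all genes tested. IL1A, among the 6 that rose, passed the filter through groups with a ligand, since its counts were too low in most DMSO libraries. CCL20 and IL6 were not tested in this line, since their counts were 0 in all of its libraries except for 3 counts of each gene in a library with 3A4. In bulk RNA a change in the share of cells that express a gene and a change in RNA per cell cannot be told apart.

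CXCL8 had 307, 195 and 236 CPM in the MIA PaCa-2 libraries with 1E5, against 55.5, 38.7 and 39.8 CPM with DMSO. Every 1E5 library stood above every DMSO library, a rise of 5.50-fold (log2 2.46 ± 0.242, edgeR adjusted p = 7.88e-06). CXCL5, which acts on CXCR2, had 218, 152 and 214 CPM with 1E5 and 41.5, 32.2 and 34.8 CPM with DMSO, again with no overlap (5.38-fold, log2 2.43 ± 0.242, adjusted p = 8.62e-06). CXCL2 had 31.6, 31.2 and 43.8 CPM with 1E5 and 12.4, 8.94 and 7.54 CPM with DMSO (3.65-fold, adjusted p = 5.79e-05). CXCL3 had 6.75, 5.95 and 9.05 CPM with 1E5 and 5.79, 2.47 and 4.93 CPM with DMSO. Those groups do not overlap either, yet the difference did not pass the test (log2 0.76 ± 0.411, adjusted p = 0.148).

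CXCL1 fell with 1E5 in MIA PaCa-2, unlike CXCL8, CXCL2 and CXCL5. It had 47.4, 41.0 and 38.1 CPM with 1E5, against 113, 86.5 and 72.0 CPM with DMSO. All 1E5 libraries lay below all DMSO libraries, and CXCL1 fell by 1.10 on the log2 scale (SE 0.162, 2.15-fold lower, edgeR adjusted p = 0.000146).

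Both interleukin-1 genes rose with 1E5 in MIA PaCa-2. IL1B had 60.2, 50.0 and 82.5 CPM with 1E5 and 9.82, 7.04 and 8.12 CPM with DMSO, a rise of 7.75-fold with no overlap (log2 2.96 ± 0.268, edgeR adjusted p = 4.75e-06). IL1A had 8.92, 6.25 and 9.35 CPM with 1E5 and 2.25, 0.381 and 0 CPM with DMSO (log2 3.14 ± 0.809, adjusted p = 0.00661). The size of the IL1A rise rested on a single DMSO library and was 4.90 on the log2 scale without DMSO replicate 1. LIF, which signals through LIFR and IL6ST, had 163, 189 and 253 CPM with 1E5 and 95.3, 90.7 and 71.4 CPM with DMSO, a rise of 2.35-fold (log2 1.23 ± 0.190, adjusted p = 0.000209). These 7 calls held without any single replicate.

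With 3A4 in MIA PaCa-2, 6 of the 8 members tested rose and 0 fell, where 7.30% of all genes rose and 6.45% fell. The median log2 fold change was 1.99, against 0.03 over all genes. All 8 had every library above the DMSO libraries, where 19.0% of all genes did. The 8 include IL1A, which passed the filter on low counts through groups with a ligand. CXCL8 had 229, 388 and 236 CPM with 3A4, against 55.5, 38.7 and 39.8 CPM with DMSO, with no overlap (6.37-fold, log2 2.67 ± 0.244, edgeR adjusted p = 0.000222). CXCL2 had 45.1, 38.4 and 39.7 CPM with 3A4 (4.22-fold above DMSO, adjusted p = 0.000601), and CXCL5 had 86.9, 167 and 98.4 CPM (3.25-fold, adjusted p = 0.00180).

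CXCL3 was also called with 3A4, and CXCL1 was not lower. CXCL3 had 20.4, 12.9 and 15.1 CPM with 3A4 and 5.79, 2.47 and 4.93 CPM with DMSO (3.75-fold, log2 1.91 ± 0.416, edgeR adjusted p = 0.0130), a call that ended without DMSO replicate 2 (adjusted p = 0.0510). CXCL1 had 126, 130.2 and 120.3 CPM with 3A4 and 113, 86.5 and 72.0 CPM with DMSO (log2 0.47 ± 0.160, adjusted p = 0.0687), and was called without DMSO replicate 1 (log2 0.67, adjusted p = 0.0297). IL1B had 39.0, 43.6 and 48.3 CPM with 3A4 and 9.82, 7.04 and 8.12 CPM with DMSO (5.28-fold, adjusted p = 0.000540). IL1A, which had 5.27, 3.29 and 4.59 CPM with 3A4, did not pass (log2 2.23 ± 0.811, adjusted p = 0.0842), and did so without DMSO replicate 1 (log2 3.98, adjusted p = 0.0296). LIF had 166, 149 and 169 CPM with 3A4 and 95.3, 90.7 and 71.4 CPM with DMSO (1.88-fold, adjusted p = 0.0108).

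With GW3965 in MIA PaCa-2 the only call of 8 members was IL1B, where 0.418% of all genes rose and 0.105% fell. It had 31.6, 23.5 and 15.7 CPM with GW3965 and 9.82, 7.04 and 8.12 CPM with DMSO, with no overlap (2.89-fold, log2 1.53 ± 0.269, edgeR adjusted p = 0.0293). That call was lost without DMSO replicate 1, 2 or 3, and without GW3965 replicate 1 or 2 (adjusted p = 0.0669 to 0.149), and held without GW3965 replicate 3. CXCL8 had 80.8, 68.7 and 71.0 CPM with GW3965 and 55.5, 38.7 and 39.8 CPM with DMSO. These groups do not overlap, and the difference did not pass (log2 0.72 ± 0.237, edgeR adjusted p = 0.347). CXCL5 did not overlap either (log2 0.51, 95% interval -0.003 to 1.03, adjusted p = 0.574), and the intervals of CXCL3 (-0.71 to 1.17) and IL1A (-1.60 to 2.38) were wide.

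Summed levels of markers of other cell types also differed between groups in MIA PaCa-2. The 6 leukocyte markers summed to 4.68 to 8.11 CPM with 1E5, 21.2 to 31.8 CPM with 3A4 and 21.1 to 35.1 CPM with DMSO, and PTPRC and CD3E were at 0 in all of these. The 5 fibroblast markers summed to 9.51 to 27.9 CPM with 1E5, 95.2 to 168 CPM with 3A4 and 247 to 257 CPM with DMSO, nearly all of it COL1A2, with DCN at 0. The 3 endothelial markers summed to 0 to 0.611 CPM with 1E5, 6.99 to 11.6 CPM with 3A4 and 21.5 to 25.6 CPM with DMSO, with PECAM1 at 0. The 5 epithelial markers summed to 539 to 605 CPM with 1E5, 967 to 1410.0 CPM with 3A4 and 1364 to 1686 CPM with DMSO, with EPCAM at 0 in all but 1 library with 1E5. The highest sum of each list was lower with either compound than with DMSO, and the part of these genes in the results was not tested.

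In PANC-1 7 members were tested, of which CXCL1 and LIF exceeded 1 CPM with DMSO. IL1B and IL6 had no count in any library of the line, and IL1A had 2, 0 and 0 counts with GW3965, 0, 0 and 5 with 1E5, 6, 0 and 9 with 3A4 and 0 in each library with DMSO. With 1E5 2 of them rose and 1 fell, where 19.7% of the 18544 genes tested rose and 19.3% fell. The median log2 fold change was 0.86, against 0.02 over all genes. Without 1E5 replicate 2, 3 rose and 1 fell, where 20% of all genes rose and 20.6% fell, and the median was 1.14, against 0.01. CXCL3, among those that rose, averaged 0.138 CPM with DMSO and 0.175 CPM with GW3965. It passed the filter on low counts through 1E5 and 3A4. LIF had 126, 146 and 151 CPM with 1E5 and 55.6, 68.6 and 65.1 CPM with DMSO, with a wide gap between the groups (2.23-fold, log2 1.16 ± 0.118, edgeR adjusted p = 2.52e-05). CXCL1 had 2.58, 0.533 and 1.28 CPM with 1E5 and 5.53, 4.50 and 5.20 CPM with DMSO. All 1E5 libraries were lower, and CXCL1 fell by 1.78 on the log2 scale (SE 0.412, 3.44-fold lower, adjusted p = 0.00538). The fall was 1.39 on the log2 scale without 1E5 replicate 2 and 2.47 without 1E5 replicate 1, and it was called in both cases.

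Low counts limit the other chemokines of PANC-1 with 1E5. CXCL3 had 0.715, 0.355 and 0.503 CPM with 1E5 and 0.0987, 0.122 and 0.194 CPM with DMSO, which is 18, 8 and 13 counts against 2, 3 and 5 (3.66-fold, edgeR adjusted p = 0.0260). Its call ended without 1E5 replicate 1 or 3 (adjusted p = 0.0901 and 0.0557) or DMSO replicate 1 or 2 (0.0873 and 0.0860). CXCL8 had 1.75, 0.311 and 1.24 CPM with 1E5 and 0.592, 0.527 and 0.699 CPM with DMSO. The groups overlap through 1E5 replicate 2 (log2 0.86 ± 0.513, adjusted p = 0.210), and without that library CXCL8 passed (log2 1.29, adjusted p = 0.0137). CXCL2 (log2 1.20 ± 1.09, adjusted p = 0.416) and CXCL5 (log2 -0.85 ± 0.937, adjusted p = 0.504) had at most 23 counts in a 1E5 library, and were 1.77 and -0.30 on the log2 scale without 1E5 replicate 2, still short of the threshold. CCL20 had no count in the 3 libraries with 1E5 and none with GW3965, against 0, 4 and 5 counts with DMSO. The difference from 1E5 did not pass the test (edgeR adjusted p = 0.0562), though it did without DMSO replicate 1, the DMSO library at 0 (adjusted p = 0.0228).

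With 3A4 in PANC-1 2 of the 7 members tested rose and 0 fell, where 3.53% of all genes rose and 3.84% fell. All 7 had their 3 libraries above every DMSO library, where 19.0% of all genes did. The median log2 fold change was 2.13, against 0.01 over all genes. CCL20 and CXCL5 averaged at most 0.119 and 0.341 CPM in the other groups of the line, so they passed the filter through 3A4. The count of 7 and this median therefore include genes admitted because they were high with 3A4. CXCL8 had 4.78, 4.38 and 3.26 CPM with 3A4 and 0.592, 0.527 and 0.699 CPM with DMSO, a rise of 6.79-fold (log2 2.76 ± 0.516, edgeR adjusted p = 0.0106). That call ended without DMSO replicate 2 (adjusted p = 0.0539). LIF had 101, 100.3 and 83.0 CPM with 3A4 and 55.6, 68.6 and 65.1 CPM with DMSO (1.50-fold, log2 0.59 ± 0.117, adjusted p = 0.0137), and its call ended without 3A4 replicate 1 or 2 (adjusted p = 0.0665 and 0.0526).

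The remaining chemokines of PANC-1 with 3A4 had large estimated changes on few counts. CCL20 had 1.69, 0.665 and 1.21 CPM with 3A4, or 42, 17 and 19 counts, and 0, 0.162 and 0.194 CPM with DMSO (log2 3.21 ± 0.883, edgeR adjusted p = 0.0726). CXCL5 had 1.32, 1.80 and 1.41 CPM with 3A4 and 0.345, 0.406 and 0.272 CPM with DMSO (log2 2.13 ± 0.858, adjusted p = 0.151). CXCL2 had 2.77, 1.37 and 1.47 CPM with 3A4 and 0.444, 0 and 0.272 CPM with DMSO (log2 2.98 ± 1.08, adjusted p = 0.116). These 3 genes, and CXCL3 (log2 2.00 ± 0.592, adjusted p = 0.0637), passed when all 36 libraries shared 1 fit, which gave 6 calls in place of 2. The share of all genes called in that fit is not given here, so the gain cannot be set against that of genes at large. CXCL1 stayed within reach of its DMSO level, with 8.23, 6.34 and 6.64 CPM with 3A4 and 5.53, 4.50 and 5.20 CPM with DMSO (log2 0.48, 95% interval -0.37 to 1.33, adjusted p = 0.493).

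No member was called with GW3965 in PANC-1, where 0.0431% of all genes rose and 0.00539% fell. By edgeR's unadjusted p under 0.05, 1 member was higher and 1 lower, against 2.80% and 1.68% of all genes, and DESeq2 called 0 members and 0.484% of its genes. LIF had 81.6, 80.8 and 78.8 CPM with GW3965 and 55.6, 68.6 and 65.1 CPM with DMSO. The groups do not overlap, and the difference did not pass (log2 0.35 ± 0.116, edgeR adjusted p = 0.818). In PANC-1 the 6 leukocyte markers summed to 45.1 to 78.1 CPM with 1E5, 46.6 to 48.4 CPM with 3A4 and 9.74 to 16.2 CPM with DMSO, most of it CD68, a lysosomal protein. PTPRC was at 0 in all of these but 1 library with 3A4 (0.0803 CPM), and CD3E was at 0. The 5 epithelial markers summed to 760 to 946 CPM with 1E5, 3011 to 3704 CPM with 3A4 and 3255 to 5091 CPM with DMSO, and the 5 fibroblast markers to 5.76 to 18.9, 12.4 to 38.0 and 54.4 to 181 CPM. The endothelial markers summed to at most 0.319 CPM. The part of these genes in the results was not tested.

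**Figure D2:**
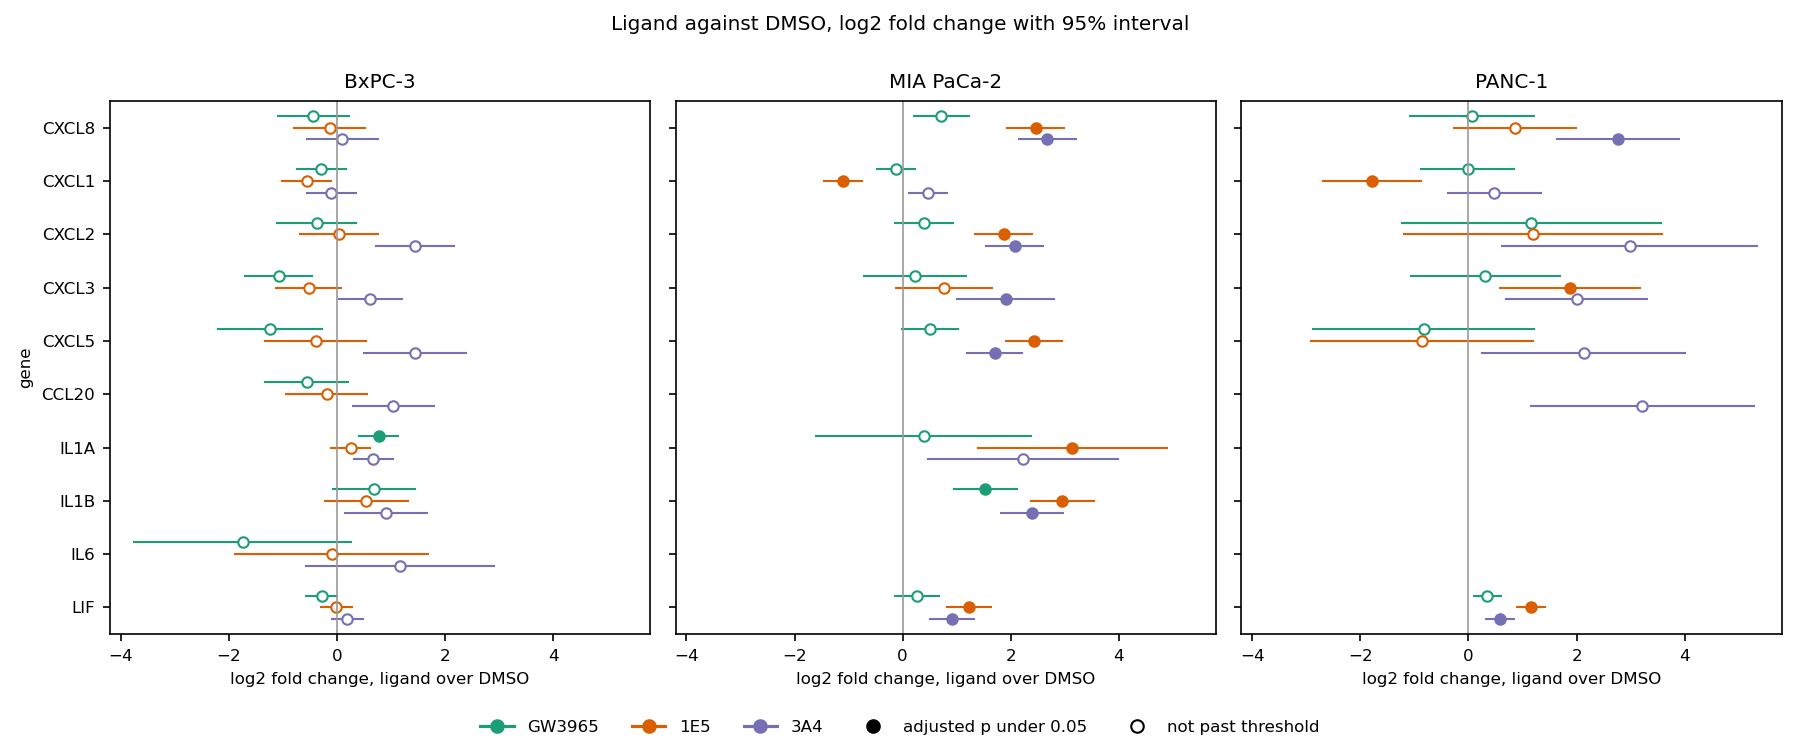
Log2 fold changes of the members over DMSO with their 95% intervals, for GW3965, 1E5 and 3A4 in each line, where filled points have an edgeR adjusted p under 0.05. Genes not tested in a line and comparisons with a group at 0 have no point. In MIA PaCa-2 the filled points of 1E5 and 3A4 lie at 0.91 or above, except for CXCL1 with 1E5 at -1.10.

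BxPC-3, the line with the most IL-1, had few changes. With 3A4 none of the 10 members was called, where 0.0277% of the 18042 genes tested rose and 0.00554% fell. A fit with the replicate number as a block did call members, as the last section gives. By edgeR's unadjusted p under 0.05, 6 members were higher and 0 lower, against 5.68% and 7.02% of all genes. DESeq2 called 3 members (CXCL2, CXCL5 and IL1A) and 2.08% of its genes. CXCL5 had 48.7, 29.7 and 26.4 CPM with 3A4 and 17.2, 7.81 and 13.6 CPM with DMSO (log2 1.44 ± 0.430, edgeR adjusted p = 0.235). CXCL2 had 11.8, 7.95 and 8.94 CPM with 3A4 and 3.79, 2.29 and 4.47 CPM with DMSO (log2 1.44 ± 0.332, adjusted p = 0.161). Neither gene's groups overlap. CCL20 had 8.99, 6.24 and 11.2 CPM with 3A4 and 3.50, 3.49 and 5.78 CPM with DMSO (log2 1.05 ± 0.341, adjusted p = 0.263), without overlap as well. CXCL8 had 47.2, 30.8 and 51.3 CPM with 3A4 and 40.3, 28.2 and 52.0 CPM with DMSO, groups that overlap throughout (log2 0.10, 95% interval -0.55 to 0.75, adjusted p = 0.920). The median log2 fold change of the list was 0.79, against 0.00 over all genes. The leukocyte markers summed to 23.8 to 26.9 CPM with 3A4 and 10.3 to 15.6 CPM with DMSO in this line, with PTPRC at 0 in both groups, and their part was not tested.

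With 1E5 no gene of BxPC-3 was called, members included (0% of genes higher and 0% lower). By edgeR's unadjusted p under 0.05, 0 members were higher and 1 lower, against 1.39% and 1.78% of all genes, and DESeq2 called 0 members and 0.0586% of its genes. The member with the lower value was CXCL1, with 27.8, 20.8 and 37.1 CPM with 1E5 and 51.1, 32.9 and 42.0 CPM with DMSO (log2 -0.56 ± 0.208, edgeR adjusted p = 1.00). These groups overlap. CXCL8 had 31.6, 26.4 and 52.1 CPM with 1E5, a range that spans that of DMSO (log2 -0.13, 95% interval -0.78 to 0.52).

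With GW3965 the only call in BxPC-3 was IL1A, where 0.477% of all genes rose and 0.848% fell. It had 320.2, 261 and 299 CPM with GW3965 and 179, 138 and 198 CPM with DMSO, with no overlap (1.71-fold, log2 0.77 ± 0.166, edgeR adjusted p = 0.0463). Leaving out any of the 6 libraries ended the call, that is DMSO replicate 1, 2 or 3 or GW3965 replicate 1, 2 or 3 (adjusted p = 0.0601 to 0.143). No chemokine passed with GW3965. CXCL3 had 1.75, 1.75 and 1.36 CPM with GW3965 and 3.96, 2.58 and 3.76 CPM with DMSO (log2 -1.08 ± 0.282, adjusted p = 0.110). CXCL5 had 9.40, 4.07 and 2.87 CPM with GW3965 and 17.2, 7.81 and 13.6 CPM with DMSO (log2 -1.23 ± 0.442, adjusted p = 0.275), and the first pair of groups does not overlap while the second does. The intervals of CXCL8 (-1.09 to 0.22), CXCL1 (-0.74 to 0.17), CXCL2 (-1.11 to 0.36) and CCL20 (-1.32 to 0.20) span 0. IL6 had 14 counts in 1 GW3965 library and 0 in the others, against 21, 16 and 15 counts with DMSO (log2 -1.74 ± 0.916, adjusted p = 0.492), and it passed without GW3965 replicate 1, which leaves that group at 0 (adjusted p = 0.0240).

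Whether the lines responded differently was tested directly, as the interaction of ligand and line in 1 fit of all 36 libraries. For 1E5, 7 of the 10 members differed among lines, where 38.5% of all genes did. LIF had the smallest adjusted p, with log2 fold changes of -0.01 in BxPC-3 and 1.23 in MIA PaCa-2, and of 1.16 in PANC-1 (edgeR adjusted p = 4.47e-05). For CXCL8 they were -0.13, 2.46 and 0.86 in the same order of lines (adjusted p = 8.34e-05), and for CXCL5 -0.39, 2.43 and -0.85 (0.000153). For 3A4, 1 member differed, where 5.89% of all genes did. That was CXCL8, with log2 fold changes of 0.10 in BxPC-3 and 2.67 in MIA PaCa-2, and of 2.76 in PANC-1 (adjusted p = 0.000613). For GW3965, 0 of 10 members differed, against 0.104% of all genes, with 4 members and 6.18% of all genes at an unadjusted p under 0.05 in edgeR.

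The 2 code-named compounds were given at the same dose for the same time, so their readouts were compared directly within each line, as 1 pair. In MIA PaCa-2 3 of 8 members differed between 3A4 and 1E5, 2 higher and 1 lower with 3A4, where 17.2% of all genes were higher and 15.1% lower. CXCL1 differed most, with 126, 130.2 and 120.3 CPM with 3A4 and 47.4, 41.0 and 38.1 CPM with 1E5, groups far apart (2.97-fold, log2 1.57 ± 0.162, edgeR adjusted p = 2.01e-05). CXCL3 was higher with 3A4 (log2 1.15 ± 0.381, adjusted p = 0.0350) and CXCL5 lower (log2 -0.73 ± 0.226, adjusted p = 0.0259). Both calls depended on single libraries. That of CXCL3 ended without 1E5 replicate 1 or 2 or 3A4 replicate 1 or 3 (adjusted p = 0.0669 to 0.124), and that of CXCL5 without 1E5 replicate 1 or 3 or 3A4 replicate 1 or 3 (0.0798 to 0.130). For CXCL8 the difference was small, with a 95% interval of -0.27 to 0.70 on the log2 scale around 0.21 (adjusted p = 0.507). For CXCL2 it was 0.21 (-0.27 to 0.69, adjusted p = 0.513) and for LIF -0.32 (-0.72 to 0.08, adjusted p = 0.205).

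In PANC-1 5 of 7 members differed between the compounds, 4 higher and 1 lower with 3A4, where 18.5% of all genes were higher and 18.8% lower. CCL20 and CXCL5, among the 4, passed the filter on low counts through the 3A4 group. CXCL1 was again higher with 3A4, at 8.23, 6.34 and 6.64 CPM, against 2.58, 0.533 and 1.28 CPM with 1E5 (4.80-fold, log2 2.26 ± 0.416, edgeR adjusted p = 0.00144, and log2 1.87 without 1E5 replicate 2 and 2.95 without 1E5 replicate 1). CXCL8 stood at 4.78, 4.38 and 3.26 CPM with 3A4 and 1.75, 0.311 and 1.24 CPM with 1E5 (3.74-fold, adjusted p = 0.0101, and 2.76-fold without 1E5 replicate 2). No library of either gene overlapped between the compounds. CCL20 had 42, 17 and 19 counts with 3A4 and 0 in each library with 1E5, at least 29.1-fold higher with 3A4 (adjusted p = 0.00348). CXCL5 had 33, 46 and 22 counts with 3A4 and 7, 0 and 7 with 1E5 (log2 2.98 ± 0.906, adjusted p = 0.0229, and log2 2.44 without 1E5 replicate 2), and its call ended without 3A4 replicate 1, 2 or 3 (0.0512, 0.0700 and 0.0509). LIF alone was lower with 3A4, at 101, 100.3 and 83.0 CPM, against 126, 146 and 151 CPM with 1E5 (log2 -0.57 ± 0.116, adjusted p = 0.00257).

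In BxPC-3 none of the 10 members was called between 3A4 and 1E5, where 0.0887% of all genes were higher and 0.0554% lower. The fit with the replicate number as a block called members here too, as the last section gives. By edgeR's unadjusted p under 0.05, 5 members were higher with 3A4 and 0 lower, against 6.75% and 7.09% of all genes. DESeq2 called 4 members (CXCL2, CXCL3, CXCL5 and CCL20) and 2.81% of its genes. CXCL5 had 48.7, 29.7 and 26.4 CPM with 3A4 and 13.2, 6.58 and 9.68 CPM with 1E5. These groups are well apart, with a log2 difference of 1.83 (95% interval 0.88 to 2.79, edgeR adjusted p = 0.138). The interval for CXCL8 was -0.42 to 0.89 around 0.23 (adjusted p = 0.766).

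**Figure D3:**
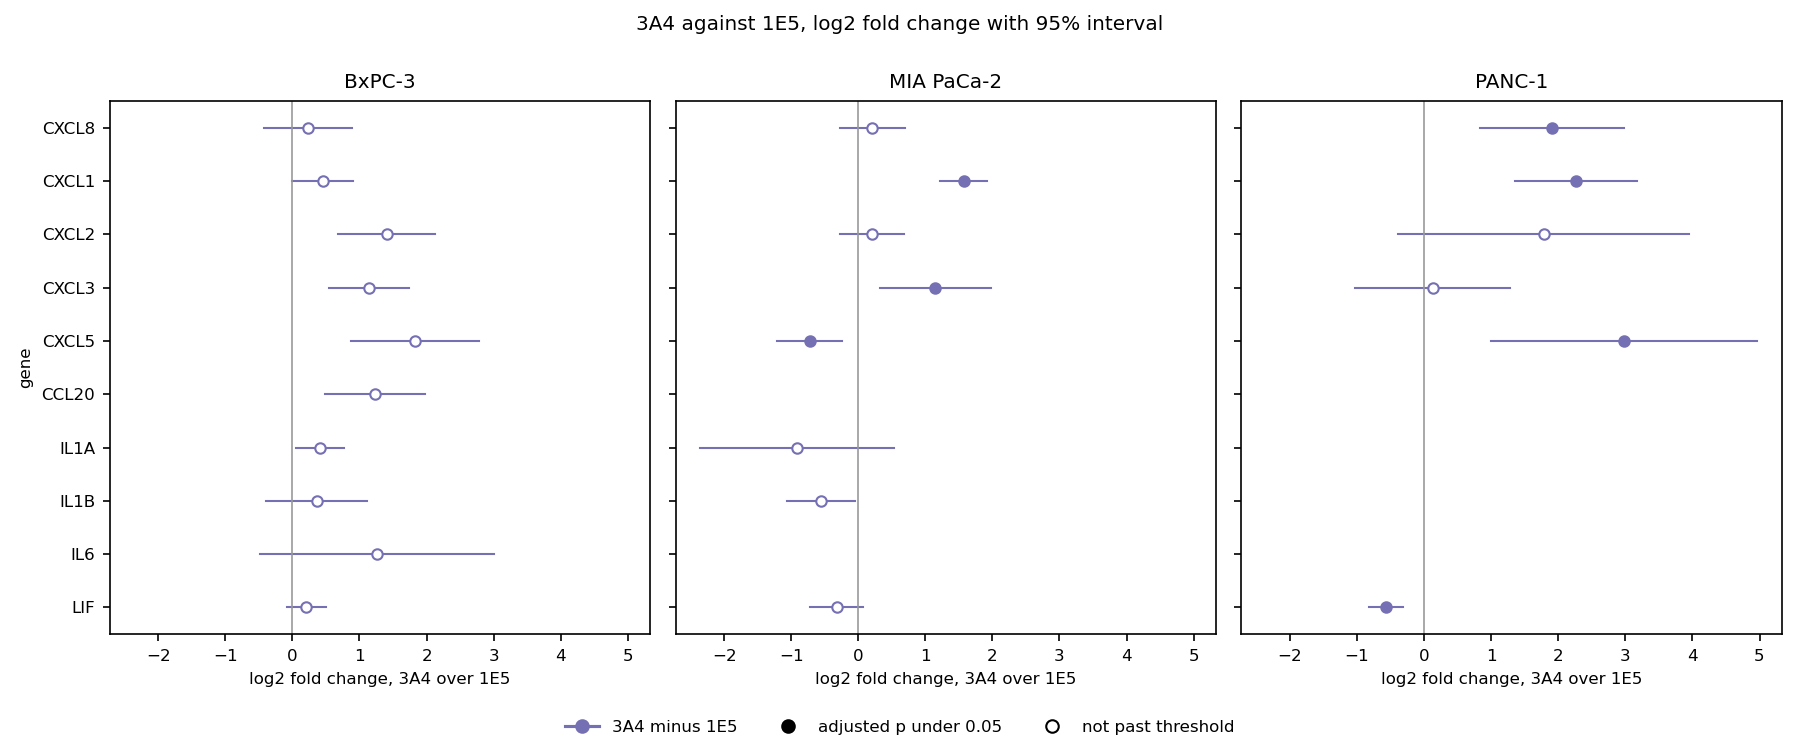
Log2 fold change of 3A4 over 1E5 for members in each line, with 95% intervals, where filled points have an edgeR adjusted p under 0.05. Genes not tested in a line and comparisons with a group at 0 have no point, among them CCL20 in PANC-1, which was called. CXCL1 and CXCL5 are called in both MIA PaCa-2 and PANC-1, CXCL1 at 1.57 and 2.26 and CXCL5 in opposite directions at -0.73 and 2.98, and LIF in PANC-1 lies at -0.57.

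CXCL8 and CXCL1 share the receptor CXCR2 but did not keep a fixed ratio. In MIA PaCa-2 CXCL8 had 6.47, 4.74 and 6.19 counts per count of CXCL1 with 1E5, 1.82, 2.98 and 1.97 with 3A4 and 0.492, 0.448 and 0.552 with DMSO. In PANC-1 the ratio was 0.677, 0.583 and 0.970 with 1E5, 0.581, 0.691 and 0.490 with 3A4 and 0.107, 0.117 and 0.134 with DMSO. In both lines every library with either compound stood above every DMSO library. The ratio was 11.6-fold higher with 1E5 and 4.44-fold higher with 3A4 in MIA PaCa-2, and 6.10-fold and 4.89-fold higher in PANC-1. Each of these had an exact two-sided permutation p of 0.1 (n = 3 each), the smallest that 3 libraries against 3 allow, and 0.18 after adjustment over the 9 comparisons with DMSO. In BxPC-3 the ratio averaged 1.27 ± 0.133 with 1E5, 1.10 ± 0.233 with 3A4 and 0.960 ± 0.241 with DMSO, values that overlap. With GW3965 it averaged 0.126 ± 0.0368 in PANC-1, 0.888 ± 0.153 in MIA PaCa-2 and 0.859 ± 0.135 in BxPC-3 (SD, n = 3 each). In MIA PaCa-2 the GW3965 libraries, at 1.06, 0.775 and 0.826, also stood above every DMSO library. That rise was 1.77-fold, with the same permutation p of 0.1 and 0.18 after adjustment. In PANC-1 and BxPC-3 the ratios with GW3965 overlapped those with DMSO.

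**Figure D4:**
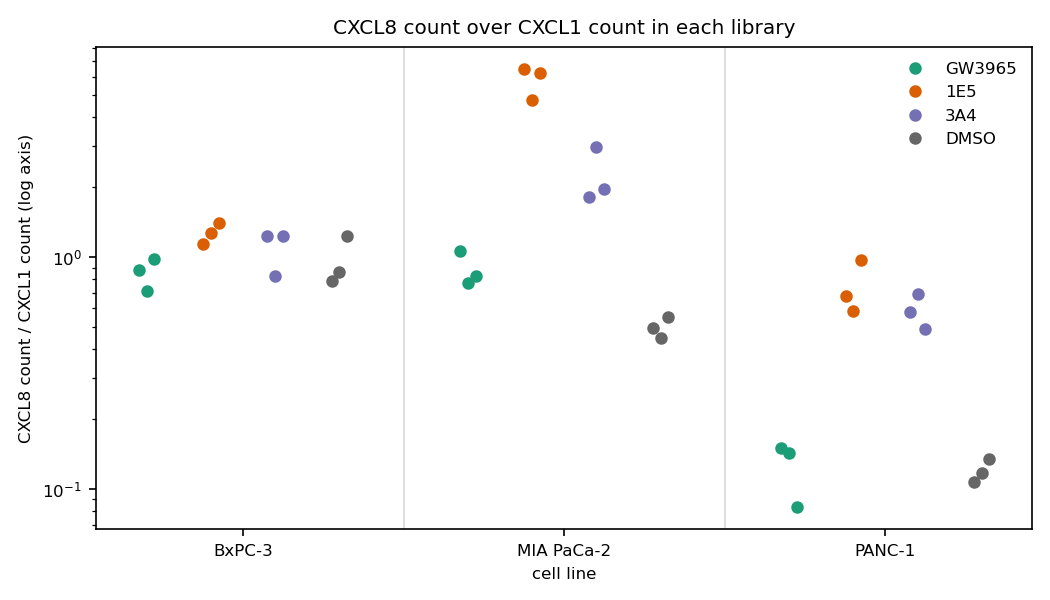
Count of CXCL8 divided by count of CXCL1 in each of the 36 libraries on a log axis, by line and ligand, with 1 point per library. In MIA PaCa-2 the ratio is 4.74 to 6.47 with 1E5 and 0.448 to 0.552 with DMSO, and in PANC-1 it is 0.583 to 0.970 with 1E5 and 0.107 to 0.134 with DMSO.

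The rest of the pathway was read from 8 lists with 95 genes. The counts below stand against the shares of all genes, which with 1E5 were 23.6% higher and 23.4% lower in MIA PaCa-2 and 19.7% and 19.3% in PANC-1, and with 3A4 7.30% and 6.45% in MIA PaCa-2 and 3.53% and 3.84% in PANC-1. Where 1E5 replicate 2 of PANC-1 is left out, the shares with 1E5 in PANC-1 were 20% higher and 20.6% lower. One list holds transcription factors that act at chemokine promoters. In MIA PaCa-2 6 of 10 rose and 1 fell with 1E5 (median log2 fold change 1.24, against 0.05 over all genes), and 7 rose and 0 fell with 3A4 (1.50, against 0.03). In PANC-1 5 rose and 1 fell with 1E5 (0.72, against 0.02), and 4 rose and 0 fell with 3A4 (0.85, against 0.01). Without 1E5 replicate 2 of PANC-1, 6 rose and 1 fell with 1E5 (0.51, against 0.01). ATF3, a stress-induced factor, averaged 102 ± 36.1 CPM with 1E5 and 3.46 ± 1.54 CPM with DMSO in MIA PaCa-2 (30.8-fold, edgeR adjusted p = 1.99e-06), and rose 11.6-fold with 1E5 in PANC-1 (13.5-fold without 1E5 replicate 2). CEBPB, the C/EBP family member of the acute-phase response, averaged 88.3 ± 9.95 CPM with GW3965, 237 ± 3.02 CPM with 1E5, 137 ± 11.9 CPM with 3A4 and 41.9 ± 8.26 CPM with DMSO in MIA PaCa-2. All 3 differences passed (2.13-fold, 5.69-fold and 3.29-fold), and CEBPB was the only factor of the list called with GW3965 in any line. EGR1, an immediate early factor, averaged 18.7 ± 1.41 CPM with 3A4 and 2.12 ± 0.897 CPM with DMSO in PANC-1 (8.83-fold, adjusted p = 0.000858).

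Among receptors of these ligands 3 of 6 tested rose and 1 fell with 1E5 in MIA PaCa-2, and 2 rose and 1 fell with 3A4. IL1R1, the signalling receptor of IL-1, averaged 35.5 ± 16.8 CPM with 1E5, 47.5 ± 13.3 CPM with 3A4 and 127 ± 28.5 CPM with DMSO, and fell by 1.83 and 1.41 on the log2 scale (edgeR adjusted p = 0.000671 and 0.0168). Its accessory chain IL1RAP rose 5.51-fold with 1E5 in MIA PaCa-2 (11.7 ± 3.55 CPM, against 2.05 ± 0.523 with DMSO) and 2.50-fold in PANC-1. LIFR averaged 49.3 ± 4.08 CPM with 1E5 and 19.9 ± 5.81 CPM with DMSO in MIA PaCa-2, but 75.1 ± 8.38 CPM with 1E5 and 196 ± 10.9 CPM with DMSO in PANC-1, a rise of 2.44-fold in MIA PaCa-2 and a fall of 2.60-fold in PANC-1 (edgeR adjusted p for a difference among lines = 8.65e-08). IL6ST fell 2.28-fold with 1E5 in PANC-1, where 1 of 6 receptors rose and 3 fell, and rose 2.65-fold with 3A4 in MIA PaCa-2.

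Of 9 antagonists and feedback genes tested in PANC-1, 4 were higher and 1 lower with 3A4 than with 1E5, where 18.5% of all genes were higher and 18.8% lower. BIRC3, an inhibitor of apoptosis induced by NF-kB, averaged 35.1 ± 4.84 CPM with 1E5, 257 ± 22.6 CPM with 3A4 and 126 ± 26.2 CPM with DMSO there (log2 -1.85 and 1.03, edgeR adjusted p = 2.00e-05 and 0.00664). TNFAIP3, the ubiquitin-editing brake on NF-kB known as A20, averaged 5.18 ± 1.42 CPM with 1E5, 17.3 ± 2.81 CPM with 3A4 and 8.85 ± 1.73 CPM with DMSO (log2 -0.77 and 0.97, adjusted p = 0.0320 and 0.0406), and its fall with 1E5 was not called without 1E5 replicate 2 (log2 -0.58, adjusted p = 0.0859). NFKBIA, the inhibitor that retains NF-kB in the cytoplasm, did not pass between the compounds (log2 0.42, adjusted p = 0.125), and CISH, a STAT5 feedback gene, was lower with 3A4 (log2 -2.50, adjusted p = 0.0133), a call that ended without 1E5 replicate 2 (0.0684). NFKBIA passed without that library (log2 0.60, adjusted p = 0.0458). NFKBIA and CISH were picked out after their values were seen. Between the compounds BIRC3 was 7.34-fold and TNFAIP3 3.34-fold higher with 3A4 than with 1E5 (adjusted p = 2.13e-06 and 0.000359). In MIA PaCa-2 both rose with both compounds, BIRC3 by 4.91-fold with 1E5 and 5.26-fold with 3A4 and TNFAIP3 by 2.55-fold and 7.25-fold. Of 9 genes of this list tested in PANC-1, 1 rose and 3 fell with 1E5, and 3 rose and 0 fell with 3A4.

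Other chemokines were also called lower in places. Of 8 tested in BxPC-3, 3 fell with GW3965 and 0 rose: CXCL10, CXCL11 and CCL5, ligands that draw T cells. CXCL10 averaged 14.3 ± 1.76 CPM with GW3965 and 58.3 ± 16.7 CPM with DMSO (log2 -2.02 ± 0.298, edgeR adjusted p = 0.00897). In PANC-1 3 of 7 fell with 1E5 and 0 rose, among them the monocyte chemokine CCL2, with 7.94 ± 1.89 CPM with 1E5 and 91.6 ± 43.7 CPM with DMSO (log2 -3.52 ± 0.384, adjusted p = 4.15e-05). In MIA PaCa-2 1 of 4 fell and 0 rose with 3A4. Among other cytokines, CSF3, the granulocyte growth factor, averaged 12.9 ± 2.85 CPM with GW3965, 28.2 ± 2.16 CPM with 1E5, 49.7 ± 3.94 CPM with 3A4 and 4.31 ± 0.864 CPM with DMSO in MIA PaCa-2. All 3 differences passed (2.99-fold, 6.64-fold and 11.7-fold, adjusted p = 0.0127, 2.13e-06 and 1.29e-05). IL32 rose with 1E5 in both MIA PaCa-2 (5.27-fold) and PANC-1 (3.68-fold).

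Signal transducers of the IL-1 and STAT3 pathways numbered 20, and 9 rose and 4 fell with 1E5 in MIA PaCa-2, 7 rose and 3 fell with 1E5 in PANC-1, and 4 rose and 2 fell with 3A4 in MIA PaCa-2. Without 1E5 replicate 2 of PANC-1, 5 rose and 4 fell there. With 3A4 in PANC-1 edgeR called 0 of the 20. At an unadjusted p under 0.05 there were 5 of the 20, near the share of all genes (4541 of 18544). DESeq2 called 3 of the 20, and its share of all genes is not given here. MYD88, the adaptor of the IL-1 receptor, fell 2.71-fold with 1E5 and 2.22-fold with 3A4 in MIA PaCa-2 and 2.72-fold with 1E5 in PANC-1. IRAK2, a kinase-like partner of MYD88, rose 4.15-fold with 1E5 and 4.09-fold with 3A4 in MIA PaCa-2. Of 9 mRNA decay factors 5 rose and 2 fell with 1E5 in MIA PaCa-2, led by RC3H1 (Roquin-1) at 2.86-fold, and 1 rose and 2 fell with 1E5 in PANC-1 (0 and 3 without 1E5 replicate 2). Among genes of secretion and processing, ADAM17, the protease that sheds membrane cytokines and the IL-6 receptor, rose with 1E5 by 2.89-fold in MIA PaCa-2, and by 2.71-fold in PANC-1. CAPN1, a subunit gene of the calpains that cleave pro-IL-1 alpha, fell by 2.16-fold and 1.95-fold in the same order. With 3A4 CAPN1 fell 1.45-fold in MIA PaCa-2. CAPN2, the other calpain gene of the list, did not follow it. CAPN2 rose with 3A4 by 1.89-fold in MIA PaCa-2 and 1.64-fold in PANC-1. In PANC-1 it averaged 526 ± 25.8 CPM with 1E5 and 379 ± 33.4 CPM with DMSO.

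The genes whose levels were most like those of a member were found over all 36 libraries after subtracting each line's mean, among 14511 genes. For CXCL8 they were LINC00941 (Pearson r = 0.889), GLRX3 (0.883) and TOP1 (0.883). For IL1A they included FUT4 (0.831) and AP3B2 (0.824), and for LIF they were CDCP1 (0.921), FAM83G (0.903) and PPP1R15A (0.897). Within BxPC-3 alone the r of CXCL8 with LINC00941 was 0.541 and that of IL1A with FUT4 was -0.228. These values describe points that share ligand groups and library depth, and they carry no test. Among the members themselves, the r of CXCL8 across the 12 MIA PaCa-2 libraries was 0.946 with CXCL2, 0.941 with CXCL5 and 0.915 with IL1B, but -0.051 with CXCL1.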

How the data were processed

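RNA sequencing libraries came from 3 established lines, with 3 libraries in each of 12 groups. The deposited values are whole-number counts for each gene, in 1 table. Per the labels' protocols, a stranded kit for total RNA was given 500 ng. Trim Galore 0.4.4, HISAT2 2.0.2, SAMtools 1.3, StringTie 1.3.1c and the build GRCh38 are named in the submitters' processing notes. How strand and multi-mapping reads were handled in counting is not given in the sources used here.

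Of 58658 lines, 407 naming a transcript and 8 naming an assembled locus were left out, at most 0.00389% and 0.00019% of a library's counts for loci and transcripts. Symbols were found for 57532 of the 58243 genes. The 10 members and the lists of pathway and marker genes were chosen with earlier results of these data known. Groups were taken from the titles.

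Counts were tested as deposited with edgeR 4.0.16 in R 4.3.3 (quasi-likelihood test, two-sided, TMM scaling, filterByExpr with a minimum count of 10 and total of 15) on the 12 libraries of a line with 1 mean per group. Lines were compared, and the ligand by line interaction tested with 2 degrees of freedom, in 1 fit of all 36 libraries. The Benjamini-Hochberg adjustment ran over every gene tested, and calls are at 0.05. The code was tested on simulated data. CPM are counts per 1000000 of the scaled total. Errors are SD of CPM and SE of log2 fold changes, and 95% intervals are not adjusted for the number of genes. Bounds against a group at 0 use 3 counts over the group and cover counting error only. No pair of replicates agreed within sampling noise (chi-square per degree of freedom 8.62 to 155 over 36 pairs). Depth limits members under about 1 CPM and the shallow MIA PaCa-2 groups most.

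Of each pathway list, up to 3 called genes per line and ligand are named, those of largest change whose groups do not overlap and average 2 CPM or more. Most like CXCL8, IL1A and LIF are the 3 genes of highest Pearson r of log2 CPM (prior count 2), of which 1 is not reported here. Alternatives were RLE scaling, no filter, DESeq2 1.42.0, the replicate number as a block, no mitochondrially encoded genes, other sets of libraries in the fit, and each library left out.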

Additional observations from a re-analysis of the deposited data

Results flagged for a closer look

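The response to 1E5 differed among the 3 lines for 7 members, by the edgeR test of the ligand by line interaction adjusted over 22132 genes, of which 38.5% were called. For CXCL8 the log2 fold changes over DMSO were -0.13 in BxPC-3 and 2.46 in MIA PaCa-2, with 0.86 in PANC-1 (adjusted p = 8.34e-05). For LIF they were -0.01, 1.23 and 1.16 in the same order of lines (4.47e-05), for CXCL5 -0.39, 2.43 and -0.85 (0.000153), and for CXCL3 -0.52, 0.76 and 1.87 (0.00887). For CXCL1 they were -0.56, -1.10 and -1.78, with an adjusted p of 0.0433. That call ended without the filter on low counts (0.0505). It also ended (0.0514 to 0.126) without 1E5 replicate 1 or 3 or DMSO replicate 2 or 3 of BxPC-3, 1E5 replicate 1 or 2 of MIA PaCa-2, and 1E5 replicate 2 or 3 or DMSO replicate 1 or 3 of PANC-1. For IL1B the change was 0.55 in BxPC-3 and 2.96 in MIA PaCa-2, with every PANC-1 library at 0 (0.000924). For IL1A it was 0.26 in BxPC-3 and 3.14 in MIA PaCa-2, while all DMSO libraries of PANC-1 were at 0 (0.00280), so its PANC-1 change is not defined.

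The response to 3A4 differed among lines for CXCL8, with log2 fold changes of 0.10 in BxPC-3 and 2.67 in MIA PaCa-2, with 2.76 in PANC-1 (edgeR adjusted p = 0.000613).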

How the results depend on the processing

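Of 2311 values of single members under the alternatives, 2169 kept their direction and their side of the threshold, 63 fell short of it, 46 passed it and 33 changed sign. Of 258 counts of members called, 228 stayed within 1.5 times the main count. With GW3965 in BxPC-3 (1 call) the count was 2 with DESeq2 and with the replicate block and 0 with all 36 libraries in 1 fit, without the filter and with only the compared groups. It was 0 with only the compared groups for GW3965 in MIA PaCa-2 (1 call). With 3A4 in BxPC-3 (0 calls) it was 3 with DESeq2 and 4 with the block, and for 3A4 over 1E5 there (0 calls) 4 and 3. With 3A4 in PANC-1 (2 calls) it was 6 with all 36 libraries in 1 fit and 5 with only the compared groups. The shares of all genes called in those 2 fits are not given here. For the 3A4 response by line (1 call) it was 2 with the block. Same-numbered replicates deviated together weakly at most (r = -0.062 to 0.229 over 45 pairs, 12 of them over 0.1). Within BxPC-3 every r was positive (0.021 to 0.229), so a weak pairing there is not excluded. In 0 of 15 comparisons was every pair over 0.1, so the numbers were not read as pairs. The block gave IL6 with 1E5 in BxPC-3 a log2 fold change of 0.002, against -0.09.

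Leaving out 1 library gave 0 to 1 calls with GW3965 in BxPC-3 and in MIA PaCa-2, 1 to 2 with 3A4 in PANC-1, 1 to 3 for 3A4 over 1E5 in MIA PaCa-2 and 1 to 2 for the 3A4 response by line. Uncalled members changed sign among these fits, with log2 fold changes of -0.253 to 0.074 for CXCL1, -0.34 to 0.54 for CXCL3 and -0.11 to 2.13 for IL1A with GW3965 in MIA PaCa-2. With GW3965 in PANC-1 they were -0.28 to 0.30 for CXCL8, -0.17 to 0.10 for CXCL1 and -0.003 to 0.65 for CXCL3. With 1E5 in BxPC-3 they were -0.47 to 0.10 for CXCL8, -0.40 to 0.25 for CXCL2, -0.57 to 0.10 for CCL20, -0.244 to 0.083 for IL6 and -0.109 to 0.094 for LIF. With 3A4 in BxPC-3 they were -0.10 to 0.33 for CXCL8 and -0.25 to 0.06 for CXCL1. For 3A4 over 1E5 they were -0.081 to 0.40 for CXCL8 in MIA PaCa-2 and -0.31 to 0.41 for CXCL3 in PANC-1. For BxPC-3 over MIA PaCa-2 they were -0.20 to 0.29 for CXCL8 and -0.37 to 0.22 for CXCL3. The cause was not tested.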
